A study of Mus musculus with 6 samples.

Results

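The Hes and Hey genes encode basic helix-loop-helix transcription factors, and the 9 of them described here are Hes1, Hes2, Hes3, Hes5, Hes6, Hes7, Hey1, Hey2 and Heyl. They were chosen by symbol, not by level, from the 23337 symbols counted in each library. Of the 9 genes, 6 had counts, and the same 6 were among the 11714 genes that passed the filter on low counts and were tested. RNA was measured in outer hair cells, which amplify sound by changing length, from the organ of Corti of mice at E18.5. There were 3 libraries of the genotype Insm1-Het and 3 of Insm1-KO, and the cells of both were sorted by flow cytometry for the fluorescence of an Insm1-GFP-Cre allele. Insm1 encodes a zinc-finger transcription factor of nascent outer hair cells, so the sorting gate reads the locus that the genotypes differ in. The strain, the sex, the pooling of animals and the makeup of the KO allele do not appear in the labels, and nothing says that the libraries of a genotype came from separate animals. The p-values therefore measure only the spread between these libraries, which may be technical.

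When a Notch receptor is bound by a ligand on a neighbouring cell, it is cleaved, and its intracellular part joins the DNA-binding protein RBPJ at target genes. Hes1, Hes5 and the Hey genes are the classic targets, and their products recruit Groucho-type corepressors and repress proneural genes such as Atoh1. In the organ of Corti this lateral inhibition is known to keep Notch-receiving cells as supporting cells, while the hair cells, which present ligand, express Atoh1. Hes6 is the odd member: it is known as a gene of differentiating neurons and hair cells that lies downstream of proneural factors, and its product antagonizes Hes1 and promotes neurogenesis.

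Library totals ran from 10721902 to 12427039 counts in Het and from 7705177 to 9748629 in KO, with 12126 to 13763 genes detected. The hair cell myosin Myo6 averaged 5077 ± 183 CPM over the Het and 4990 ± 167 CPM over the KO libraries (SD, n = 3), where CPM is counts scaled to a common library size after correction for library composition. Insm1 itself was at 69.2 to 116 CPM in the Het libraries against 18.7 to 78.7 CPM in the KO libraries. The ranges overlap, and this level checks the labels only in part, because the deleted part of the gene is not given. KO replicate 3 had the lowest Insm1 and the fewest genes detected, and of the 6 libraries it also had the highest Hes6, Hey2, Notch1, Jag1, Lfng and Atoh1 and the lowest Hey1 and Jag2.

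The proximal promoters were read to show which members carry the letters bound by RBPJ. RefSeq entries on GRCm38.p6 were found for 4 of the 9 genes, Hes5, Hes6, Hes7 and Hey2, and the 250 bases before each annotated start are used here. The 3 genes with counts among them are shown, with 2 start sites for Hes6, as the contrast between Notch targets and Hes6. Letters in capitals match GTGGGAA, a high-affinity RBPJ motif, on either strand, so that TTCCCAC is the same motif on the other strand. Its core TGGGAA, which lies inside it, was searched too.
Hes5: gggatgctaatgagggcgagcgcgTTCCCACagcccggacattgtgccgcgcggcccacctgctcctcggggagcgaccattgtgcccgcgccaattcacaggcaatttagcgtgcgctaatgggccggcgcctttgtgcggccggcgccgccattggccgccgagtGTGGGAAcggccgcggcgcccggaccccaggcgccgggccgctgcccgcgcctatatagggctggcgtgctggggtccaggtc
Hey2: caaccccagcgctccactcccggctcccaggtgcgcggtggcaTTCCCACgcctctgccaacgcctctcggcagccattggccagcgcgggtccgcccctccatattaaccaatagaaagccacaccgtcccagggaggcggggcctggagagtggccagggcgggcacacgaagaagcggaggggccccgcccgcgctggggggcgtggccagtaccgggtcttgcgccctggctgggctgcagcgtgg
Hes6, upstream start: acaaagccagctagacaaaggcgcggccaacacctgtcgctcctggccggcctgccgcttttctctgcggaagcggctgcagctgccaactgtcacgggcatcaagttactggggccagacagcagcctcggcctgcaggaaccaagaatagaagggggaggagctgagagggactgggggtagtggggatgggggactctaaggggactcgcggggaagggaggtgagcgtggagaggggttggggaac
Hes6, downstream start: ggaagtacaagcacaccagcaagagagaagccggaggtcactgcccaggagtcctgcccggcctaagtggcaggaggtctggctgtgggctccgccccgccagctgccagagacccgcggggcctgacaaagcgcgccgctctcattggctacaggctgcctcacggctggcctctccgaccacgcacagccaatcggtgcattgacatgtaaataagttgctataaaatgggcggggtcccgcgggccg

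These stretches are chr4:154960673-154960922 on the plus strand for Hes5, chr10:30842784-30843033 on the minus strand for Hey2, and chr1:91414039-91414288 and chr1:91413223-91413472 on the minus strand for Hes6. In GENCODE M21 the upstream Hes6 stretch lies before the gene and the downstream one in an intron of a longer transcript, the last bases of the Hey2 stretch lie in the first exon, and part of the Hes5 stretch overlaps Gm20421, a noncoding gene of the opposite strand. Hes5 held the 7-base motif 2 times, 1 copy on each strand, the first base at -226 and -83 from the start. Hey2 held 1 copy at -207, and the full 300-base window, which reaches past the start, held another whose first base lies at -4. Hes7 also held 1 copy, at -180. Neither Hes6 stretch held the 7-base or the 6-base motif. Of all 32851 promoter stretches of this length, 5.42% held the 7-base motif, 0.161% held it at least 2 times and 21.6% held the 6-base motif. The upstream Hes6 stretch held 3 E boxes (CANNTG), the letters bound by proneural factors, and the downstream one held 1, as did Hes5 and Hey2; 66.2% of all stretches held an E box. The N box CACNAG, bound by Hes proteins, was found once in the downstream Hes6 stretch, and 36.7% of all stretches held it. These matches are descriptions of letters, not of binding.

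Hes6 was the member with the highest level in every library, on a scale per kilobase of merged exons that allows genes to be compared. Its level was 111, 104 and 97.9 CPM per kb in Het and 110, 135 and 158 CPM per kb in KO replicates 1, 2 and 3. Hey1 followed with 48.2, 37.2 and 54.1 CPM per kb in Het and 39.3, 65.2 and 32.8 CPM per kb in KO libraries, below Hes6 in 6 of 6 libraries. Hes5 was next, with 24.0, 42.8 and 14.4 CPM per kb in Het and 35.02, 56.8 and 17.0 CPM per kb in KO libraries. Hey1 lay above Hes5 in 5 of 6 libraries, the exception being Het replicate 2, so the order of these neighbours varies between libraries. Heyl, Hey2 and Hes1 averaged 5.88, 4.802 and 4.25 CPM per kb over all libraries. Hes5 lay above each of the 3 in 6 of 6 libraries, but their own order varied: Heyl lay above Hey2 in 4 of 6, and Hey2 above Hes1 in 3 of 6. Levels per kb depend on the GENCODE M21 exon lengths, and which annotation the counts used is not stated.

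**Figure D1:**
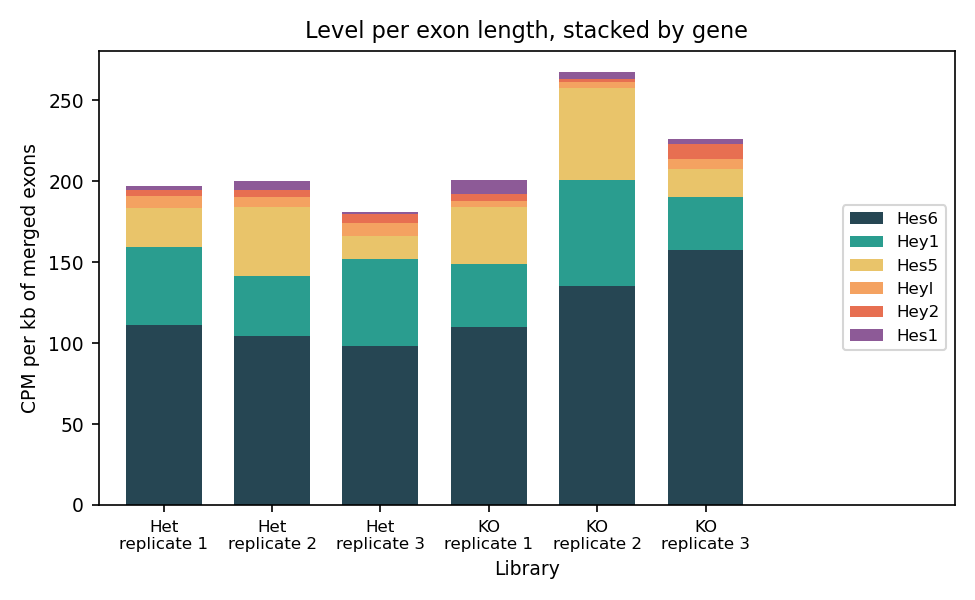
Levels of the 6 counted Hes and Hey genes in CPM per kb of merged exons (vertical axis, from 0), stacked for each of the 6 libraries (horizontal axis, Insm1-Het and Insm1-KO replicates 1 to 3). Hes6 is the tallest part of every bar, and the whole bar is tallest in KO replicate 2, at 267 CPM per kb, against 181 to 226 CPM per kb in the other 5 libraries.

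As a share of the summed level per kb of the whole family, Hes6 took 56.4%, 52.1% and 54.1% in Het libraries. It took 54.6%, 50.6% and 69.7% in KO libraries. Thus KO replicate 3 had the highest Hes6 share and KO replicate 2 the lowest, and the genotypes overlapped. Within a library, Hes6 stood 2.44 to 6.78 times above Hes5 per kb in Het and 2.38 to 9.28 times above it in KO libraries (2.38 and 3.14 times without KO replicate 3), and 18.9 to 68.2 and 12.3 to 51.5 times above Hes1. Per kb, Hes6 was therefore above both classic Hes targets in every library of both genotypes. In sorted bulk RNA, fewer cells of a type and less RNA per cell cannot be told apart, so a low level of Hes1 may stand for few cells or for little transcript in each.

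Across the genotypes, none of the 6 tested members had an adjusted p under 0.05 (quasi-likelihood F test of edgeR, p-values adjusted by Benjamini-Hochberg over all 11714 genes), and neither did any other gene (0%). At an unadjusted p under 0.05 the count was 0 of 6 members, against 626 of all tested genes (5.34%). DESeq2 passed 26 genes and limma-voom 0, and neither list held a member. The Het and KO libraries overlapped for all 6 members, while 11.2% of all tested genes had genotypes that did not overlap (5.08% higher and 6.1% lower in all KO libraries). The members' log2 fold changes, KO against Het, had a median of 0.25, with 4 above 0 and 2 below, where the median of all tested genes was 0.015. The members' median was 0.12 with limma-voom, 0.14 with the replicate block, 0.16 with library totals only and 0.16 without KO replicate 2. In the same settings the median of all tested genes was -0.051, -0.047, -0.050 and -0.014. Of the 4 above 0, Hey2 turned with the replicate block and limma-voom. CPM without division by length, used from here on, compares libraries but not genes.

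**Figure D2:**
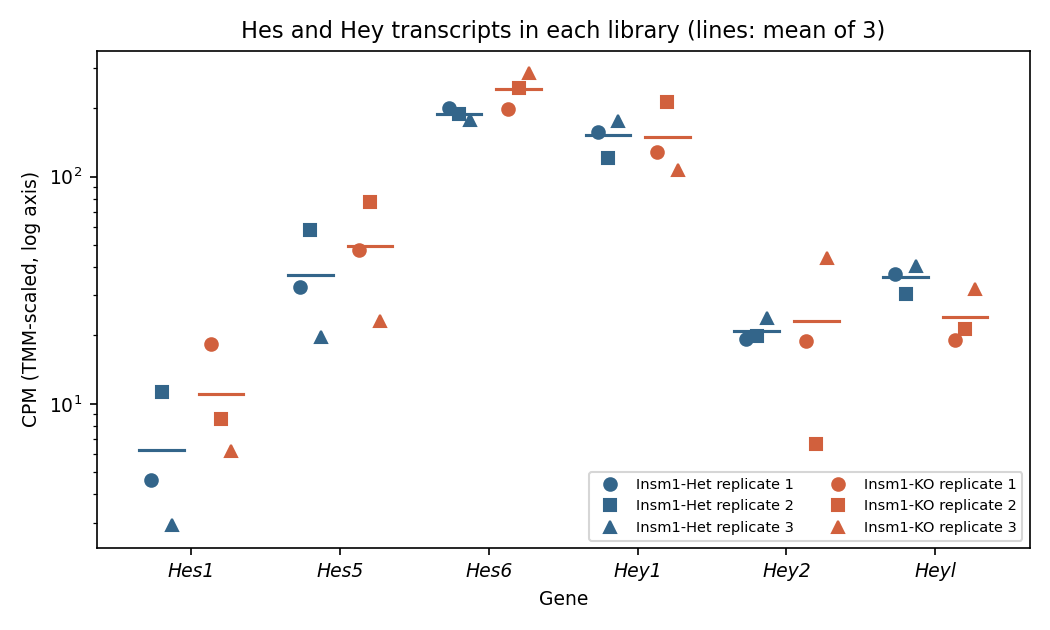
TMM-scaled CPM on a log axis for each of the 6 tested genes (horizontal axis), with 1 symbol per library, blue for Insm1-Het, orange for Insm1-KO, and a line at the mean of 3. For each gene the symbols of the genotypes overlap, and Hes1, Hes5 and, in KO only, Hey2 are the most scattered.

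Hes1, the oscillating repressor of progenitors and supporting cells (chromosome 16, 30064384 to 30067796, plus strand), was at 4.64, 11.2 and 2.92 CPM in the Het libraries against 18.3, 8.61 and 6.23 CPM in KO replicates 1, 2 and 3. These values rest on 37 to 171 counts per library. Het replicate 2 was higher than 2 of the KO libraries, and KO replicate 1 was the highest of all. The means were 6.27 ± 4.39 and 11.0 ± 6.37 CPM (SD, n = 3), and the log2 fold change of 0.82 had a 95% interval of -1.49 to 3.12 (adjusted p = 0.987 by edgeR with Benjamini-Hochberg adjustment). The estimate was 0.24 without KO replicate 1 and 1.54 without Het replicate 2. By exact permutation of the library labels (two-sided, on CPM) p was 0.4, and a design of 3 against 3 cannot go below 0.1.

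Hes5, widely used as a readout of Notch activity in the developing cochlea (chromosome 4, 154960923 to 154962371, plus strand), was at 32.7, 58.3 and 19.7 CPM in the Het libraries against 47.7, 77.5 and 23.1 CPM in the KO libraries. In both genotypes replicate 2 was the highest and replicate 3 the lowest, although the replicate numbers are not stated to pair the libraries. The 2 libraries with the lowest values, Het replicate 3 and KO replicate 3, came from different genotypes. The means were 36.9 ± 19.7 and 49.4 ± 27.2 CPM (SD, n = 3), a log2 fold change of 0.42 and a 95% interval of -0.86 to 1.70 (adjusted p = 0.987 by edgeR with Benjamini-Hochberg adjustment). Without KO replicate 2 the estimate was -0.047, so its direction rests on 1 library. Of its exons, 433 bases overlap Gm20421, and with no stated strand setting the reads of these genes cannot be told apart.

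The spread of Hes1 and Hes5 between libraries of 1 genotype was far above counting error. The coefficient of variation of Hes5 was 53.3% in Het and 55.0% in KO libraries, where counting alone would give 4.85% and 4.90%. For Hes1 it was 70.0% and 57.7%, against 11.8% and 10.1% from counting. The coefficient of variation of Hes6 was smaller, at 6.34% in Het and 17.8% in KO libraries, but also above the 2.11% and 2.18% from counting. For Hey1 it was 18.48% and 37.4%, against 2.34% and 2.81% from counting. For Heyl it was 13.9% and 28.3%, against 4.82% and 6.90%, and the values of Hey2 are given below. Spread above counting error was therefore not particular to Hes1 and Hes5.

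Hey1, a repressor of the Hey subfamily present in the embryonic prosensory domain (chromosome 3, 8663359 to 8667256, minus strand), was at 157, 121 and 177 CPM in the Het libraries against 128, 213 and 107 CPM in the KO libraries. The highest and the lowest value both came from KO libraries, so the KO range enclosed the Het range. The means were 152 ± 28.1 and 149.5 ± 56.0 CPM (SD, n = 3), a log2 fold change of -0.022 and a 95% interval of -0.72 to 0.68 (adjusted p = 0.996 by edgeR with Benjamini-Hochberg adjustment). With all 6 libraries this interval leaves out a change of 1 log2 unit in either direction. Intervals with 1 library left out were not computed. The SE was 0.325 with all 6 libraries and 0.337 without KO replicate 2. The direction is not fixed: the estimate was -0.36 without KO replicate 2 and 0.18 without KO replicate 3.

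Hey2, the Hey gene known to keep pillar cells from a hair cell fate (chromosome 10, 30832359 to 30842801, minus strand), was at 19.2, 19.9 and 23.9 CPM in Het libraries. In KO libraries it was at 18.9, 6.65 and 43.7 CPM. The Het libraries lay close together, while KO replicate 2 was below and KO replicate 3 above all of them. The coefficient of variation was 11.9% in Het and 81.8% in KO libraries, where counting alone would give 6.32% and 6.95%; the difference in spread was not tested. The means were 21.0 ± 2.50 and 23.1 ± 18.9 CPM (SD, n = 3), a log2 fold change of 0.14 and a 95% interval of -1.49 to 1.76 (adjusted p = 0.996 by edgeR with Benjamini-Hochberg adjustment). It was -0.71 without KO replicate 3 and 0.59 without KO replicate 2, and it was also below 0 with the replicate block (-0.22) and with limma-voom (-0.18).

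Heyl, the third Hey gene and a known Notch target (chromosome 4, 123233556 to 123249875, plus strand), was at 37.1, 30.5 and 40.4 CPM in the Het libraries against 19.1, 21.4 and 31.9 CPM in the KO libraries. KO replicates 1 and 2 were below every Het library, but KO replicate 3 was above Het replicate 2. The means were 36.0 ± 5.02 and 24.1 ± 6.84 CPM (SD, n = 3), a log2 fold change of -0.58 and a 95% interval of -1.80 to 0.64 (adjusted p = 0.979 by edgeR with Benjamini-Hochberg adjustment). By two-sided exact permutation p was 0.2. The estimate stayed below 0 with each library left out, from -0.82 without KO replicate 3 to -0.43 without KO replicate 1, and in all 8 other alternatives. Heyl was thus the member with the lowest estimate, and the sign was opposite to that of Hes1, Hes5 and Hes6, with no member passing.

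Hes6 (chromosome 1, 91411483 to 91414038, minus strand) was at 201, 189 and 177 CPM in the Het libraries against 199, 245 and 285 CPM in the KO libraries. KO replicates 2 and 3 were above every Het library, and KO replicate 1 lay between Het replicates 1 and 2. The means were 189 ± 12.0 and 243 ± 43.2 CPM (SD, n = 3), a log2 fold change of 0.36 and a 95% interval of -0.19 to 0.91 (adjusted p = 0.955 by edgeR with Benjamini-Hochberg adjustment). This was the narrowest interval among the members, and with all 6 libraries it leaves out a change of 1 log2 unit in either direction. Intervals with 1 library left out were not computed. The SE was 0.25 with all 6 libraries and 0.32 without Het replicate 1. By two-sided exact permutation p was 0.2, and the estimate ran from 0.24 without KO replicate 3 to 0.49 without KO replicate 1.

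**Figure D3:**
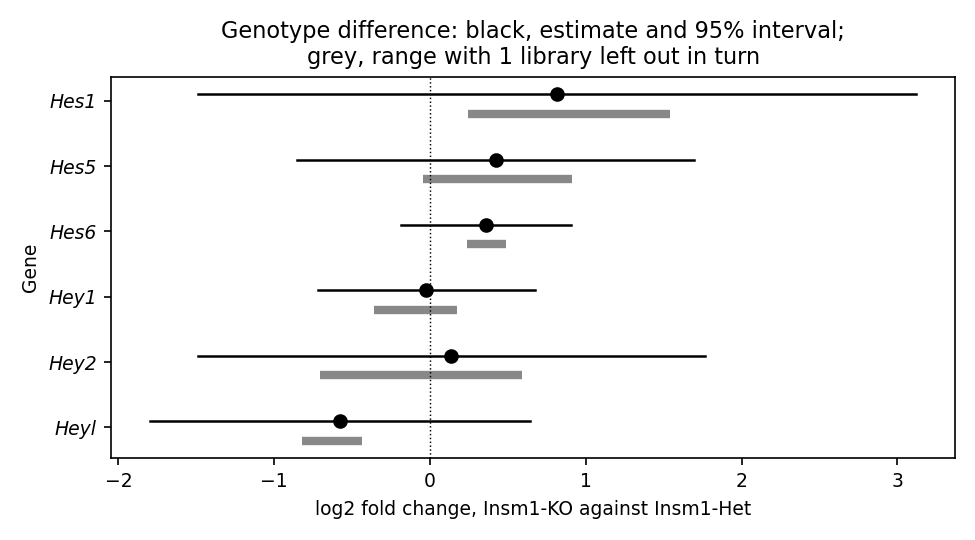
Log2 fold change, Insm1-KO against Insm1-Het (horizontal axis), for the 6 tested genes (vertical axis): black points and lines are the estimate and its 95% interval, and grey bars the range of estimates with 1 library left out in turn. All 6 intervals include 0, and the grey bars of Hes5, Hey1 and Hey2 cross it.

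Hes2, Hes3 and Hes7 had 0 counts in each of the 6 libraries. Hes7 is known for the segmentation clock of the presomitic mesoderm and Hes3 for neural progenitors. A count of 0 allows up to 3 counts, or 0.237 to 0.391 CPM per library and 0.0487 CPM over all 61600697 counts together. The floors count reads, and reads copied by amplification do not each stand for 1 molecule, so only counting error is covered.

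The genes whose level varied over the 6 libraries most like that of a member were found by the root-mean-square difference of log2 CPM, each gene centred on its own mean, among 8956 other genes of at least 10 CPM. For Hes6 they were Ptbp1, a splicing repressor, at 0.057, Hsph1, a chaperone, at 0.075, and the latrophilin gene Lphn1 (now Adgrl1) at 0.076, where the median candidate was at 0.596. For Hey1 they were Ik, Slmo2 (now Prelid3b) and Nars, at 0.085 to 0.108. For Hes5 they were Zc3h7a, Ino80b and Naa38, at 0.189 to 0.226. For Heyl they were Fam38b (now Piezo2, a mechanosensitive channel), Sec13 and Ncrna00086 (now Smim10l2a), at 0.108 to 0.153, and for Hey2 they were Lekr1, Pot1a and Usp54, at 0.136 to 0.155. None of the nearest 3 genes of any member was another Hes or Hey gene. Very few of the 8956 candidates were such genes, so this does not show whether the family varied together. Hes1, under 10 CPM on average, was not included.

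The other parts of the pathway were read from 10 lists of Notch ligands, receptors, modifiers, proteases, nuclear partners, corepressors and opposing proneural factors. Of their 79 tested genes, 0 passed in edgeR, and DESeq2 and limma-voom also passed 0. At an unadjusted p under 0.05 there were 10 genes (12.7%, against 5.34% of all tested genes), and 20 genes (25.3%, against 11.2%) had genotypes that did not overlap, 14 of them higher (5.08% of all tested genes) and 6 lower (6.1%) in all KO libraries. The median log2 fold change of the 79 was 0.10, with 46 above 0 and 33 below. The count at an unadjusted p under 0.05 varied with the library left out, and so did that of all tested genes. The list count was 5 of 80 without Het replicate 1 (496 of all 12140 tested genes) and 9 of 79 without Het replicate 2 (462 of 12238). Without Het replicate 3 it was 5 of 79 (475 of 12164). It was 18 of 80 without KO replicate 1 (1012 of 12255), 10 of 80 without KO replicate 2 (863 of 12334) and 8 of 80 without KO replicate 3 (682 of 12401). Values below are given for genes chosen by p or by abundance, so they do not stand for their lists.

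Among ligands, Jag2, which hair cells present to their neighbours, was at 432, 414 and 302 CPM in the Het libraries against 333, 405 and 161 CPM in the KO libraries. KO replicate 3 was the lowest, and the log2 fold change of -0.35 was -0.044 without it. Jag1, the ligand of the prosensory domain and of supporting cells, was at 205, 268 and 263 CPM in the Het libraries against 292, 262 and 569 CPM in the KO libraries. Its log2 fold change of 0.61 was 0.18 without KO replicate 3. The median of the 6 tested ligands was -0.09, with 3 above 0 and 3 below. Of the 4 receptors, 3 lay above 0. Notch1 was at 118, 177 and 141 CPM in the Het libraries against 182, 157 and 373 CPM in the KO libraries, and its log2 fold change of 0.71 was 0.23 without KO replicate 3. Notch2 was at 19.9, 56.7 and 29.5 CPM in the Het libraries against 30.9, 31.7 and 5.68 CPM in the KO libraries, and its log2 fold change of -0.64 was -0.17 without KO replicate 3 and -0.12 without Het replicate 2.

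Lfng, the fringe glycosyltransferase that tunes which ligand a Notch receptor answers to, was at 23.0, 25.8 and 21.4 CPM in the Het libraries against 40.5, 43.8 and 126 CPM in the KO libraries. All 3 KO libraries lay above all Het libraries, KO replicate 3 by most. Its log2 fold change was 1.58 (SE 0.56, adjusted p = 0.92 by edgeR with Benjamini-Hochberg adjustment), and 0.86 without KO replicate 3. Dtx3, a Deltex-family ubiquitin ligase, was at 6.84, 14.2 and 11.0 CPM in the Het libraries against 21.6, 89.7 and 18.1 CPM in the KO libraries, a log2 fold change of 2.01, and 0.91 without KO replicate 2. These were the 2 genes of 15 in that list with an unadjusted p under 0.05. The most abundant, Neurl1b and Itch, both ubiquitin ligases, were at 311 ± 111 and 153 ± 37.5 CPM in the Het libraries against 390.2 ± 52.1 and 188 ± 46.04 CPM in the KO libraries (SD, n = 3).

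Of the 9 genes of receptor cleavage, Psen2, a presenilin of the gamma-secretase, was at 16.4, 8.52 and 15.8 CPM in the Het libraries against 4.16, 1.57 and 1.34 CPM in the KO libraries. The KO values rest on 39, 12 and 12 counts. The genotypes did not overlap, and the log2 fold change was -2.52 (SE 1.14, adjusted p = 0.922 by edgeR with Benjamini-Hochberg adjustment). Adam10, the protease of the first activating cut, and Ncstn, another gamma-secretase subunit, were at 536 ± 26.0 and 118 ± 48.9 CPM in the Het libraries against 510.04 ± 91.8 and 87.5 ± 12.6 CPM in the KO libraries (SD, n = 3). Of the 15 nuclear partners 0 had an unadjusted p under 0.05. The most abundant were Ncor1, a corepressor, and Crebbp, an acetyltransferase, with log2 fold changes of 0.26 and 0.30. The estimate for Ncor1 was 0.017 without KO replicate 2 and 0.085 without Het replicate 1, and that for Crebbp was 0.18 without Het replicate 2.

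Of the 9 tested corepressors of Hes and Hey proteins, Hdac2 and Sirt1, both deacetylases, had an unadjusted p under 0.05. Hdac2 was at 300.5, 326 and 309 CPM in the Het libraries against 247, 208 and 105 CPM in the KO libraries, a log2 fold change of -0.74, and -0.45 without KO replicate 3. Sirt1 was at 68.4, 64.5 and 136 CPM in the Het libraries against 38.0, 24.4 and 42.6 CPM in the KO libraries, a log2 fold change of -1.35, and -0.91 without Het replicate 3. In both, all KO libraries lay below all Het libraries, and the adjusted p was 0.92 by edgeR with Benjamini-Hochberg adjustment. Sin3a, the scaffold of a deacetylase complex, was at 163 ± 77.7 and 203 ± 29.9 CPM (SD, n = 3). The list's median log2 fold change was -0.13, with 4 above 0 and 5 below.

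Among the 5 tested genes listed as other Notch targets, all lay above 0. Gata3, a zinc-finger factor of the prosensory domain, was at 349, 410 and 332 CPM in the Het libraries against 424, 502 and 782 CPM in the KO libraries, a log2 fold change of 0.65, and 0.36 without KO replicate 3. Sox9 was at 126 ± 19.5 and 135 ± 15.3 CPM (SD, n = 3). The 4 tested genes of the list of related bHLH repressors were all Id genes, whose products hold proneural factors away from their E protein partners. Id4 was at 72.8, 56.9 and 59.5 CPM in the Het libraries against 128, 104 and 139 CPM in the KO libraries, a log2 fold change of 0.97 (SE 0.34). Id1 was at 15.6, 28.5 and 19.5 CPM in the Het libraries against 50.1, 71.3 and 31.9 CPM in the KO libraries, a log2 fold change of 1.27 (SE 0.57). Id2 was at 52.8, 37.9 and 50.1 CPM in the Het libraries against 70.6, 75.8 and 63.2 CPM in the KO libraries. In all 4 Id genes, Id3 among them, every KO library lay above every Het library, as in 5.08% of all tested genes. None of the 4 passed (the smallest adjusted p was 0.92 by edgeR with Benjamini-Hochberg adjustment), and the unadjusted p by edgeR was 0.19 for Id2 and 0.20 for Id3.

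Atoh1, the proneural factor that makes hair cells and that Hes and Hey proteins are known to repress, was at 440.3, 411 and 449.6 CPM in the Het libraries against 599, 560.2 and 871 CPM in the KO libraries. Every KO library lay above every Het library. Its log2 fold change was 0.64 (SE 0.22, adjusted p = 0.92 by edgeR with Benjamini-Hochberg adjustment), and 0.43 without KO replicate 3. Barhl1, a homeobox factor of hair cells, was at 177, 192 and 118 CPM in the Het libraries against 200.1, 221 and 431 CPM in the KO libraries, a log2 fold change of 0.81, and 0.39 without KO replicate 3. Nhlh1, another basic helix-loop-helix factor, had a log2 fold change of -0.22, and the median of the 9 tested proneural and hair cell factors was -0.22, with 4 above 0 and 5 below. The E proteins Tcf4 and Tcf12, the partners of Atoh1, were at 410 ± 43.1 and 118 ± 40.6 CPM in the Het libraries against 387 ± 31.6 and 136 ± 75.3 CPM in the KO libraries (SD, n = 3).

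**Figure D4:**
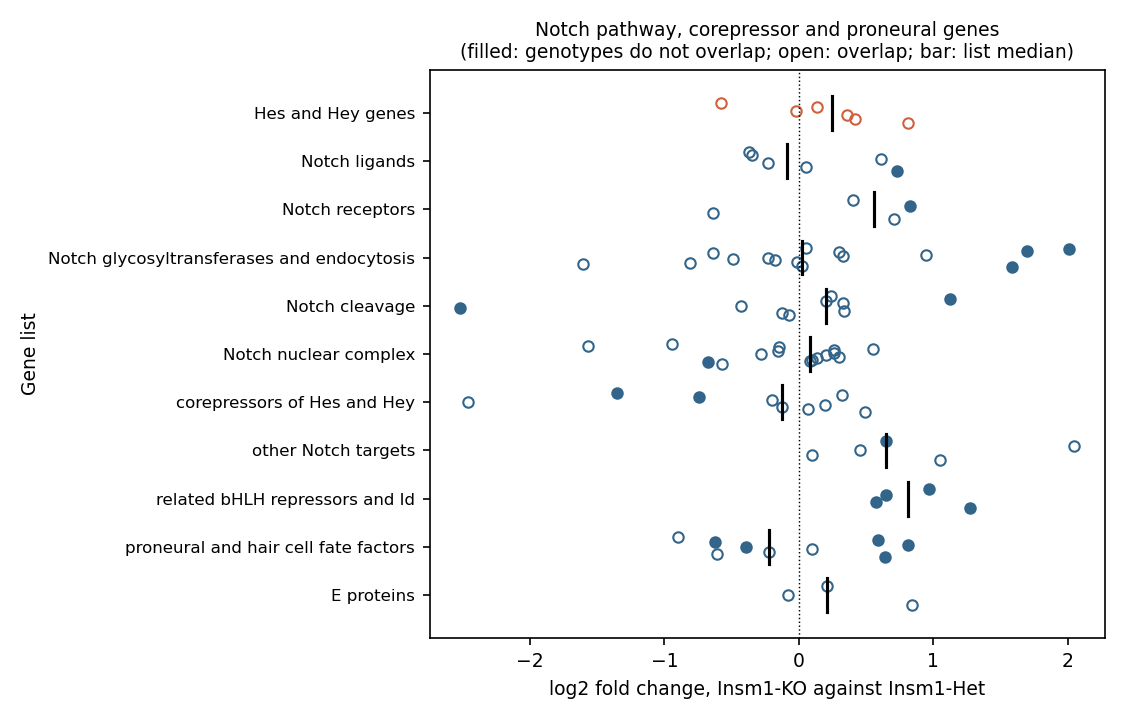
Log2 fold change, Insm1-KO against Insm1-Het (horizontal axis), of each tested gene in the 10 lists and of the 6 Hes and Hey genes (vertical axis), with filled circles where the genotypes do not overlap and a bar at each median. All 6 Hes and Hey circles are open, and all 4 tested genes of the list with the Id genes are filled and above 0. Of all tested genes, 5.08% were higher in all KO libraries.

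Hes and Hey transcripts also come from cell types other than hair cells, so markers of those cells are given beside them. The 14 supporting cell markers summed to 1126 to 1421 CPM in the Het libraries against 1181 to 1738 CPM in the KO libraries, and of the 12 tested 3 had a log2 fold change above 0 and 9 below. Sox2, their defining transcription factor, was at 144 to 167 CPM in the Het libraries against 112 to 200 CPM in the KO libraries, and Prox1, also present in young hair cells, at 453 ± 73.3 and 600.4 ± 126 CPM (SD, n = 3), a log2 fold change of 0.40 that was 0.23 without KO replicate 3. The 8 endothelial markers summed to 7.57 to 32.9 and 8.48 to 34.1 CPM and the 7 mural markers to 21.3 to 56.7 and 14.5 to 56.5 CPM, with replicate 3 the highest in both genotypes. The 8 mesenchyme markers summed to 238 to 431 and 225 to 335 CPM. Markers of the greater epithelial ridge, the progenitor field beside the hair cells, summed to 574 to 1313 CPM over Het and 613 to 1075 CPM over KO libraries, and those of neurons to 975.4 to 1154 and 932 to 1582 CPM, with Th at 0 in every library. Glial markers summed to 112 to 158 and 165 to 173 CPM, with Foxd3 at 0 throughout. The KO sums lay above the Het sums, but for each of the 3 glial markers tested the genotypes overlapped. Immune markers summed to 87.2 to 121 and 39.6 to 136 CPM with Csf1r and Aif1 at 0. Laptm5 alone was at 85.0 to 121 and 37.5 to 136 CPM, so this sum mostly follows that gene. Likewise, the ridge sums rest mostly on Tecta and Calb1 (548 and 209 CPM on average). The neuron sums rest mostly on Nefm and Nefl (597 and 325 CPM), with Tubb3 at 0 to 26 counts. Cnp (126 CPM) dominates the glial and Pdgfra (273 CPM) the mesenchyme sums. These sums do not measure how many such cells were present. In KO replicates 1 and 2 the immune sums were 39.6 and 41.2 CPM, and Laptm5, the only one of that list tested, had a log2 fold change of -0.55, which was -1.41 without KO replicate 3. Among erythroid genes, Alas2, the heme synthesis enzyme of red cells, was at 0.651, 0 and 0.316 CPM in the Het libraries against 0.747, 4.96 and 2.67 CPM in the KO libraries, on 0 to 38 counts. Its exons share 372 bases with Apex2 and Mir3620, whose reads cannot be told apart from its own there. Hba-a1, Hba-a2 and Hbb-y were at 0 throughout. The hair cell markers summed to 9607 to 10083 CPM over Het and 9678 to 11203 CPM over KO libraries. Most of this came from Myo6 and Ptprq (5033 and 2187 CPM on average). The 7 markers listed for outer hair cells summed to 716 to 862 and 679 to 818 CPM. The supporting cell sums rest mostly on Prox1, Fgfr3 and Lgr5 (527, 251 and 216 CPM). None of these sums is divided by gene length, so lists cannot be compared by them. The part that cells other than hair cells have in the levels of Hes1, Hes5 and the Hey genes was not tested.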

How the data were processed

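The files deposited by the authors hold raw read counts for 23337 gene symbols in each of 6 libraries, with 0 blank or summary lines. The submitters' processing notes name GRCm38 (mm10) and the tools Trimmomatic, STAR and HTSeq, without versions. The annotation, the strand setting and the handling of reads that map to several places were not given in the sources used here. Per the labels' protocols, the RNA of sorted cells was depleted of ribosomal RNA, amplified with random priming and sequenced as paired reads.

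The filter filterByExpr (count minimum 10, total minimum 15, groups by genotype) took out 0.274% of counts. After TMM scaling, KO was compared with Het by the quasi-likelihood F test of edgeR 4.0.16, with no covariate, p-values being adjusted over 11714 genes (Benjamini-Hochberg, 0.05). The code was tested on simulated counts with the same dispersion for every gene, which does not measure the power to find changes in these libraries. Standard errors are the log2 fold change divided by the root of F, and confidence limits are at 95%. The alternatives were DESeq2 1.42.0, limma 3.58.1 (voom), other scalings and filters, the newer quasi-likelihood form, the replicate block and each library left out. No protein sequence was used here. Gene positions and exon lengths came from GENCODE M21 (GRCm38). The members, the lists and the rule for named genes (the members; per pathway list the genes past the threshold or with an unadjusted p under 0.05 and the 2 most abundant; per marker list the most abundant and those with an unadjusted p under 0.05) were chosen with earlier results of these data known. Because the strand setting is not stated, a read from an exon shared with another gene may belong to either gene. Of the members, this limit concerns Hes5 and Hes7. Of the other listed genes named here, it concerns Alas2, Cnp, Csf1r, Egfl7, Fgfr3, Foxd3, Gata3, Gfi1, Id4, Ncor1 and Ncstn. It also concerns Nefl, Nefm, Notch1, Notch2, Pdgfra, Prox1, Sin3a, Sirt1 and Tecta. The summed level of the erythroid list is not reported here.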

Additional observations from a re-analysis of the deposited data

How the results depend on the processing

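In all 8 alternatives and with each of the 6 libraries left out, 0 of the 6 tested Hes and Hey genes and 0 of the 79 tested list genes passed. Over all genes, where the main count was 0, DESeq2 passed 26 genes, no filter 67, the newer quasi-likelihood form 1 and the replicate block 1, and the cause was not tested. The filter at 1 CPM in 3 libraries kept the same 11714 genes as the main one. Over all genes, same-numbered libraries did not deviate together (correlations of 0.010, 0.007 and 0.014), so the numbers are not taken as pairs. Yet replicate 3 had the highest supporting cell, ridge, immune, endothelial and mural marker sums in both genotypes, and Hes5 had the same replicate order in both. Whether same-numbered libraries share their cell makeup was not tested. The replicate block changed no call of a member.

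Of the 6 members, Hey2 alone changed direction outside the left-out libraries: its log2 fold change was -0.22 with the replicate block and -0.18 with limma-voom. With 1 library left out, 3 members changed direction, with ranges of -0.047 to 0.91 for Hes5, -0.36 to 0.18 for Hey1 and -0.71 to 0.59 for Hey2. Among other named genes 11 did so: Egfl7 (-1.24 to 0.30), Cnp (-0.073 to 0.28), Tecta (-0.36 to 0.83), Myo6 (-0.055 to 0.0036), Pdgfra (-0.34 to 0.10), Pdgfrb (-0.64 to 0.50), Nefm (-0.066 to 0.49), Tcf4 (-0.12 to 0.0088), Tcf12 (-0.28 to 0.55), Adam10 (-0.23 to 0.032) and Nhlh1 (-0.35 to 0.0067). With library totals only, Tecta was at -0.029 and Pdgfrb at -0.023, and Pdgfrb was also at -0.10 with the replicate block and -0.075 with limma-voom. Depth limits Hes2, Hes3 and Hes7, which had 0 counts.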

Other observations

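Markers of cell types that share the cochlea with outer hair cells held some of the genes with an unadjusted p under 0.05, and none passed after adjustment. Gjb2, a gap junction protein of supporting cells, was at 32.2, 14.3 and 52.5 CPM in Het replicates 1, 2 and 3 against 7.90, 6.52 and 4.23 CPM in KO replicates 1, 2 and 3, a log2 fold change of -2.41 (SE 0.78). Lgr5, a Wnt pathway receptor of supporting cells, lay the other way, at 186, 129 and 170.01 CPM in the Het libraries against 217, 198 and 394 CPM in the KO libraries, a log2 fold change of 0.74 (SE 0.31), which was 0.37 with KO replicate 3 left out. For both genes the genotypes did not overlap. Erbb3, a neuregulin receptor of glia, was at 4.89, 1.22 and 0.948 CPM in the Het libraries against 25.1, 2.48 and 34.2 CPM in the KO libraries, where KO replicate 2 lay below Het replicate 1. The most abundant markers of the remaining lists were Tecta of the greater epithelial ridge (548 CPM on average), Nefm of neurons (597 CPM), Pdgfra of mesenchyme (273 CPM), Cnp of glia (126 CPM), Laptm5 of immune cells (88.1 CPM), Pdgfrb of mural cells (30.7 CPM) and Egfl7 of endothelium (9.81 CPM).

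Of the 10 hair cell markers 3 had genotypes that did not overlap, Atoh1 and Tmc1 higher and Gfi1 lower in all KO libraries. The same held for 2 of the 7 outer hair cell markers, Ocm higher and Strip2 lower. Of all tested genes, 11.2% had genotypes that did not overlap, 5.08% higher and 6.1% lower in all KO libraries. Gfi1, a zinc-finger factor of hair cells named here after its values were seen, was at 179, 189.7 and 185 CPM in the Het libraries against 173, 136 and 114 CPM in the KO libraries. Tmc1, a channel subunit of mechanotransduction, was at 9.53, 0.468 and 2.45 CPM in the Het libraries against 22.8, 21.5 and 32.0 CPM in the KO libraries. The Het values rest on 117, 5 and 31 counts. The log2 fold change of Tmc1 was 2.61 (SE 1.04), and it was 4.10 without Het replicate 1 and 2.08 without Het replicate 2. Ocm, the calcium buffer oncomodulin, had 0 counts in each Het library and 1.60, 2.87 and 3.67 CPM in the KO libraries. It passed the filter on low counts only through the KO libraries, so its lack of overlap was set by that filter. Strip2, listed as Fam40b and the most abundant outer hair cell marker, was at 332, 244 and 270.1 CPM in the Het libraries against 213, 191 and 201 CPM in the KO libraries, a log2 fold change of -0.48.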
